A study of Mus musculus with 29 samples.

Results

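The proteoglycans of the aortic wall were followed here as 10 genes, Dcn, Bgn, Aspn, Fmod, Lum, Prelp, Ogn, Podn, Vcan and Acan. They were chosen by name, and all 10 were found among the 56748 genes of the count table by their Ensembl identifiers. The material was bulk RNA of the aortic arch, with 1 library from each of 29 mice, of which 28 libraries were used. All mice were F1 hybrids of C57BL6J and FVB and were perfused with PBS. WT mice carried both intact Ercc1 alleles, and Ercc1Δ/− mice carried 1 loss-of-function and 1 hypomorphic allele of this DNA repair gene as germline alleles. Mice fed ad libitum (AL) were taken at 6 weeks (5 WT, 5 Ercc1Δ/−) and at 22 weeks (4 WT, 4 Ercc1Δ/−), and mice on dietary restriction (DR), begun at 7 weeks of age and at 30% from 9 weeks, were taken at 22 weeks (5 WT, 5 Ercc1Δ/−). Both sexes were used, with 3 males and 2 females in each group of 5. At 22 weeks on AL there were 3 males and 1 female among WT mice and 2 males and 2 females among Ercc1Δ/− mice. Sample 003, another AL-fed WT mouse of 22 weeks with 400410 counts, was left out. The study stained aortas for proteoglycans, and the question asked of the RNA was whether transcripts of their core proteins differed with genotype, age or diet.

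Proteoglycans are core proteins that carry sulfated sugar chains and sit between the collagen and elastic fibers of the vessel wall. The small leucine-rich proteoglycans bind collagen fibrils through a curved repeat domain and influence fibril thickness and spacing, and several also bind TGF-β. Versican and aggrecan are large proteoglycans that bind hyaluronan and hold water, and their accumulation in the media is a known feature of diseased aortas. Transcript levels do not measure the sugar chains or the protein that remains in the wall.

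Libraries held 921167 to 9616382 counts on genes, with a median of 3256708, and the group with the lowest median was that of the DR-fed Ercc1Δ/− mice (1576566, range 921167 to 2572523). Ercc1 itself was at 52.2 to 136 normalized counts in the 14 WT mice and at 28.2 to 78.7 in the 14 Ercc1Δ/− mice, and it was lower in Ercc1Δ/− mice at 6 weeks, at 22 weeks on AL and at 22 weeks on DR (adjusted p = 0.000301, 0.00278 and 0.000533 from edgeR). Normalized counts are counts scaled to a library of 3683502. The defining genes of smooth muscle were abundant in every library, with a summed level of 16745 to 42953 CPM (counts as a share of the library, scaled to a fixed total) over 8 genes. Those of lymphoid cells summed to at most 24.0, of skeletal muscle to at most 213 and of cardiac muscle to at most 597 CPM. The highest skeletal muscle sum was that of AL-fed Ercc1Δ/− mouse 013 of 22 weeks, beside a median of 6.56 over the 28 mice. Its part in the values of the members was not tested. Markers of fat ran from 471 to 3443 CPM and overlapped between all groups. Their medians in WT and Ercc1Δ/− mice were 1055.5 and 1361 at 6 weeks, 754 and 1878 at 22 weeks on AL, and 807 and 2306 on DR. Of the 10 fat genes 1, Elovl3, was called higher in Ercc1Δ/− mice at 22 weeks on each diet. The list's median log2 fold change was 1.09 on AL and 0.38 on DR. The part of fat in the values of the members was not tested.

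Fmod, Acan and Bgn were the members that were called between genotypes in at least 1 comparison, and the 250 bases before the start of each are shown with the motif matches in capitals. The sequences are the RefSeq promoters of the 3 genes, 5′ to 3′ on the strand of the gene, and each was matched once and exactly in GRCm39, at chr1:133964742-133964991 for Fmod (+), chr7:78702724-78702973 for Acan (+) and chrX:72526957-72527206 for Bgn (+). In the Fmod stretch the capitals mark matches to CAGAC. The capitals of the Bgn stretch are matches to GGGCGG, of which a pair overlaps. The Acan stretch holds that motif too, with overlaps between matches. A CCAAT box is also marked there. The motif bound by TEAD factors, CATTCC, is marked near its end and overlaps a GC box. Both strands were searched.
Fmod: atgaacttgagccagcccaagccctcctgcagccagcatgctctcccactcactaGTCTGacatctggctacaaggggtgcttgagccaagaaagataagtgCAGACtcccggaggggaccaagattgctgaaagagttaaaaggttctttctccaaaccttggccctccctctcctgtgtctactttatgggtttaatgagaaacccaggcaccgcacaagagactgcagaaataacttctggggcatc
Acan: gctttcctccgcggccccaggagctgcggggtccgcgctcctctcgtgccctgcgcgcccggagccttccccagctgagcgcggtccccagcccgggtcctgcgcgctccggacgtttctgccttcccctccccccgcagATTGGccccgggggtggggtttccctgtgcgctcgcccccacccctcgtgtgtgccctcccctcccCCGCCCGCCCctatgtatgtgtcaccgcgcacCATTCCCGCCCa
Bgn: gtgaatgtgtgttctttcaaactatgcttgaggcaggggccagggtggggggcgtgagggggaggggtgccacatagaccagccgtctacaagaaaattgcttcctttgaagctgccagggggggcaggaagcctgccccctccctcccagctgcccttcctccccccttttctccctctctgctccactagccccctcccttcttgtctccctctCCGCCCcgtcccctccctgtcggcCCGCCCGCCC
G and C made up 51.2% of the Fmod stretch, 74.4% of the Acan stretch and 64.4% of the Bgn stretch, beside a median of 52.0% over 27025 genes. GGGCGG, the letters of a GC box, occurred in both Bgn and Acan and in 32.9% of all promoters. CAGAC, the core of a Smad-binding element, occurred in Fmod and in 42.1% of all promoters, CCAAT in 34.5% and CATTCC, the letters bound by TEAD factors, in 12.6%. The search also covered the TATA box motif TATAAA (in 13.0% of all promoters), the AP-1 motif TGANTCA (in 6.87%) and the CArG box (in 1.4%), and none of the 3 was found in these stretches. No searched motif was found in all 3 genes. A promoter was listed for 8 of the 10 members.

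The 10 members together took 0.813% to 1.29% of the normalized counts. Levels per length are CPM divided by the kb of exon. On this scale Bgn (biglycan, a class I small leucine-rich proteoglycan that binds collagen and TGF-β) stood above all others, with a median of 945 and a range of 606 to 1165 over the 28 mice. Bgn alone made up 47.2% to 62.0% of the normalized counts of the 10 genes. Prelp (median 174.5), Ogn (138) and Dcn (118.5) followed, then Aspn (62.6), Lum (46.0) and Podn (25.8). Fmod (16.7), Vcan (14.5) and Acan (5.52) were lowest. Bgn was above Prelp in 28 of 28 mice with no overlap of their ranges, and Vcan was above Acan in 28 of 28. Prelp exceeded Ogn in 24 of 28 mice, Ogn exceeded Dcn in 23 and Aspn exceeded Lum in 26. Podn and Fmod (18 of 28), and Fmod and Vcan (15 of 28), changed places between mice. The place of Fmod went with genotype. Its group means were 24.8 to 33.3 in WT and 7.1 to 12.3 in Ercc1Δ/− mice. Over the 6 groups, the means of Vcan were 13.3 to 16.0 and those of Podn 23.0 to 29.0. With the longest transcript in place of all exons as the length, Dcn moved from the fourth to the second place (median 249, Prelp 224) and Lum passed Aspn (71.3 and 63.3), so that the order of these neighbours depends on which transcripts are taken. The counts were made over whole gene bodies, of which exons are an uneven part, 16535 of 87384 bases in Vcan and 6416 of 7588 in Lum. The order by gene span was not computed.

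**Figure D1:**
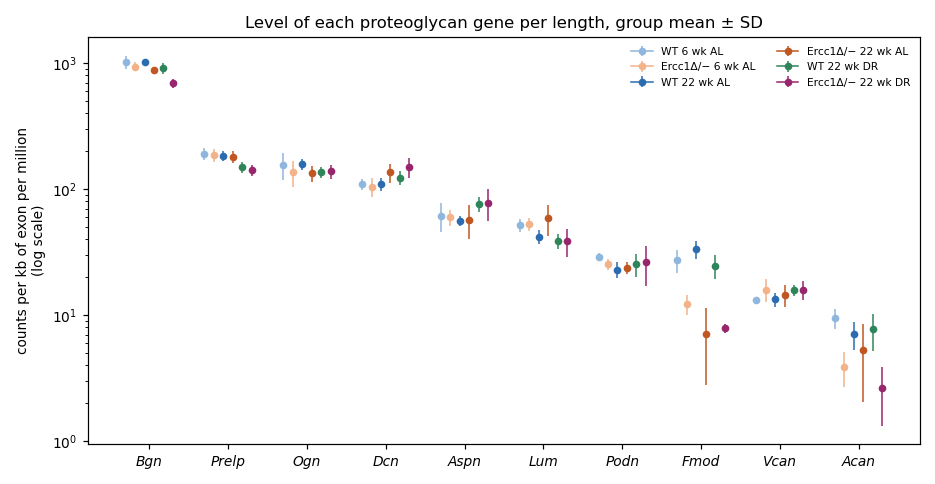
Level of each proteoglycan gene per length (CPM divided by the kb of exon, log scale), as the mean ± SD of each of the 6 groups. Bgn lies above all other members in every group, and Fmod and Acan are the members whose group means differ most, by 4.68 and 3.61 times between the highest and the lowest group.

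The members differed in how far their group means lay apart. The highest group mean was 4.68 times the lowest for Fmod and 3.61 times for Acan, and between 1.189 and 1.515 times for the other 8. Fmod and Acan also varied most between mice of the same group, with a within-group SD of 0.50 on the log2 scale for both, a larger SD than that of 85.9% and 86.0% of all tested genes. For Fmod this spread lay mostly in AL-fed Ercc1Δ/− mice of 22 weeks. Their log2 deviations from the group mean ran from -1.68 to 1.04, and those of the other groups from -0.60 to 0.43. Bgn varied least, with an SD of 0.13, which exceeded that of 5.7% of tested genes, and Prelp followed with 0.15. The other members had SDs between 0.215 and 0.324.

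Fmod (fibromodulin, ENSMUSG00000041559, chr1:133964992-133976015 in GRCm39) is a class II small leucine-rich proteoglycan that binds collagen I and steers its crosslinking. It was called lower in Ercc1Δ/− mice at 22 weeks on each diet, and its values were also lower at 6 weeks. In bulk RNA, fewer cells of a type and less RNA per cell cannot be told apart. At 22 weeks on AL, the 4 WT mice had 409, 464, 471 and 591 normalized counts and the 4 Ercc1Δ/− mice had 24.9, 89.3, 124 and 175. The groups did not overlap, and the lowest value, that of mouse 026, rested on 10 counts. The difference was 4.28-fold (log2 fold change -2.10 ± 0.34 SE, adjusted p = 0.00109 from edgeR's quasi-likelihood test). Without mouse 026 it was -1.75 ± 0.23 on the log2 scale (adjusted p = 0.000139).

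On DR at 22 weeks, Fmod was at 275, 310, 361, 377 and 476 normalized counts in WT mice and at 102, 106, 120, 121 and 124 in Ercc1Δ/− mice. The Ercc1Δ/− values were close together and all lay below the lowest WT value. This was a 3.08-fold difference (log2 fold change -1.62 ± 0.29, adjusted p = 0.0017). At 6 weeks the values were 257, 409, 425, 434 and 471 in WT mice and 145, 158, 170, 192 and 228 in Ercc1Δ/− mice. These groups did not overlap either, with WT mouse 024 nearest to the Ercc1Δ/− mice, but the log2 fold change of -1.14 ± 0.29 had an adjusted p of 0.0615. Fmod was called at 6 weeks by DESeq2 (adjusted p = 0.00165) and in the fit of the compared groups only (0.00244), with the adjusted p between 0.00165 and 0.221 over the alternatives. Without the sex term (0.048), with all 6 groups in 1 fit (0.0109) and with thinned counts (0.0041) Fmod was called as well. In all, 5 of the 13 alternatives called it. It was also called by edgeR without WT mouse 024 (0.0373) or without Ercc1Δ/− mouse 004 or 026 of 22 weeks (0.0351 and 0.00386), which enter the fit through its shared spread. Over the 18 omissions of 1 mouse, the adjusted p lay between 0.00386 and 0.136.

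Over all ages and diets, the highest Ercc1Δ/− value of Fmod (228) was below the lowest WT value (257). Of 12353 tested genes, 0.332% had their 14 Ercc1Δ/− values wholly below their 14 WT values, and Fmod was the 1 member among them. Sample 003, a WT mouse that was not used, had 19 counts of Fmod, or 190 normalized counts (189.5), which is within the Ercc1Δ/− range. The genotype difference of Fmod was larger at 22 weeks than at 6 weeks by -0.96 ± 0.44 on the log2 scale, which was not called as an interaction of genotype and age (adjusted p = 0.433), nor was that of genotype and diet (0.44 ± 0.43, adjusted p = 0.831). DR left Fmod in Ercc1Δ/− mice at a mean of 115 ± 9.91 (SD, n = 5) beside 103 ± 63.0 on AL (n = 4), with a log2 fold change of 0.02 ± 0.34 and an adjusted p of 0.99.

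Acan (aggrecan, ENSMUSG00000030607, chr7:78702964-78764847) is the large hyaluronan-binding proteoglycan best known from cartilage. At 6 weeks it was at 222, 245, 252, 286 and 342 normalized counts in WT mice and at 82.9, 90.7, 102, 107.1 and 168 in Ercc1Δ/− mice. The groups did not overlap, and Ercc1Δ/− mouse 015 was highest in its group. Acan was 2.43-fold lower in Ercc1Δ/− mice (log2 fold change -1.28 ± 0.27, adjusted p = 0.0264). The adjusted p lay between 0.00426 and 0.0802 when 1 mouse was left out, and it passed 0.05 without WT mouse 009, 011, 019 or 024 or Ercc1Δ/− mouse 002 or 027 (0.067, 0.0544, 0.0674, 0.0725, 0.0636 and 0.0802). A test against the 1.2-fold change gave an adjusted p of 0.0936, and thinned counts gave 0.167.

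On DR at 22 weeks, WT mice had 145, 172, 193, 284 and 306 normalized counts of Acan and Ercc1Δ/− mice had 43.3, 53.2, 63.5, 76.2 and 137. All Ercc1Δ/− mice lay below the lowest WT mouse, although mouse 016 came close to it, and the Ercc1Δ/− values rested on 11 to 57 counts. The difference was 2.98-fold (log2 fold change -1.57 ± 0.29, adjusted p = 0.00186). When all libraries were thinned to 921167 counts, it was -0.97 with an adjusted p of 0.32.

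On AL at 22 weeks the groups overlapped. The 4 WT mice had 155, 160, 242 and 244 normalized counts of Acan and the Ercc1Δ/− mice had 78.8, 97.7, 142 and 284. Except for mouse 026, which was above every WT mouse, the Ercc1Δ/− mice were below every WT mouse. The log2 fold change was -0.37 ± 0.30 (adjusted p = 0.47), and without mouse 026 it was -0.81 ± 0.26 (adjusted p = 0.0605). DR went with a log2 difference of -1.08 ± 0.33 in Ercc1Δ/− mice (adjusted p = 0.112 from edgeR, 0.0117 from DESeq2, 0.0492 without mouse 013 and 0.293 without mouse 026) and of 0.22 ± 0.24 in WT mice (0.772). These 2 effects differed by -1.29 ± 0.41, which had an unadjusted p of 0.00649 and an adjusted p of 0.344. Both diet effects use the same 18-sample fit.

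Of 11 defining genes of cartilage 5 were at 0 in most mice, and Sox9, Col11a2 and Comp had counts in 28 of 28. Matn1 had a count in 1 of 28 mice, Cnmd in 9, and Col2a1 never exceeded 15 counts, while Acan reached 638. The cartilage list as a whole ran from 76.4 to 212 CPM, and the larger part of it was Comp, Col11a2 and Sox9, with 9453, 2023 and 1337 counts over the 28 mice. None of its 3 tested genes was called between genotypes (0 of 3 in each genotype comparison).

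Bgn (ENSMUSG00000031375, chrX:72527208-72539541) was lowest in DR-fed Ercc1Δ/− mice. These mice had 15071, 16727, 17378, 18004 and 19026 normalized counts. The DR-fed WT mice had 20168, 20667, 23644, 23841 and 25263, and the AL-fed Ercc1Δ/− mice had 21335, 21390.5, 21411 and 23886. Each of the 5 DR-fed Ercc1Δ/− mice was below every mouse of both other groups. Against DR-fed WT mice Bgn was 1.32-fold lower (log2 fold change -0.40 ± 0.08, adjusted p = 0.00157), and against AL-fed Ercc1Δ/− mice it was 1.28-fold lower (-0.36 ± 0.09, adjusted p = 0.0313). A test of the genotype difference against the 1.2-fold change gave an adjusted p of 0.174. Macrophage markers were lower on DR in Ercc1Δ/− mice as well (4 of 8 called, C1qa, C1qb, Cd68 and Mrc1, with a list median of -0.84 on the log2 scale), and their part in the diet differences of Bgn and Prelp was not tested. The call of Bgn for diet in Ercc1Δ/− mice was lost in several settings. It had an adjusted p of 0.0556 with sample 003, of 0.0531 without the sex term and of 0.12 with only the compared groups, and leaving out Ercc1Δ/− mouse 004, 005, 026, 014 or 029 gave 0.0695, 0.115, 0.061, 0.0778 and 0.0913. In WT mice DR went with -0.16 ± 0.09 (adjusted p = 0.435), and the effects of DR in the 2 genotypes did not differ by the interaction test (-0.19 ± 0.12, adjusted p = 0.694). On AL, Bgn had log2 fold changes between genotypes of -0.12 ± 0.09 at 6 weeks and -0.20 ± 0.11 at 22 weeks (adjusted p = 0.66 and 0.253).

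Prelp (a class II member with a basic end that binds heparan sulfate, at chr1:133837335-133857971 on the minus strand) was lower on DR. AL-fed Ercc1Δ/− mice of 22 weeks had 4104, 4528, 4878 and 5286 normalized counts and DR-fed ones had 3349, 3486, 3612, 3625 and 4229. Only mouse 006 on DR reached the range of the AL group. The log2 fold change was -0.36 ± 0.10 (adjusted p = 0.0463), a call that was lost under 8 of the 13 alternatives, and it was kept only without mouse 006, 012, 018, 021 or 026 when each of the 18 mice was left out in turn (adjusted p between 0.0298 and 0.165). In WT mice the AL values were 4417, 4570, 4750 and 5379 and the DR values 3291, 3705, 3926, 4184 and 4261, without overlap, and the log2 fold change was -0.30 ± 0.09 with an adjusted p of 0.131. The 2 diet effects differed by -0.06 ± 0.14 (adjusted p = 0.94). Genotype differences of Prelp were between -0.08 and -0.03 on the log2 scale, with adjusted p-values of 0.621 to 0.934.

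Lum (lumican, a class II member that binds collagen fibrils) and Dcn (decorin, a class I member that binds collagen and TGF-β) lie in a row on chromosome 10, at 97400990-97408577 and 97315275-97358155, with 42.8 kb between them. Lum was at 857, 933, 1015 and 1158 normalized counts in WT mice at 22 weeks on AL and at 841, 1448, 1603 and 1654 in Ercc1Δ/− mice. Mouse 026 was the lowest of all 8, and the other 3 Ercc1Δ/− mice were above every WT mouse. The log2 fold change was 0.43 ± 0.15 (adjusted p = 0.0659), and without mouse 026 it was 0.62 ± 0.13 (adjusted p = 0.00261). When each of the 18 mice was left out in turn, the adjusted p lay between 0.00261 and 0.183. For Dcn, the WT mice had 4596, 4980, 5445 and 6095 and the Ercc1Δ/− mice had 4974, 6463, 7275 and 7380. The same mouse was again lowest in its group. The log2 fold change of Dcn was 0.33 ± 0.14 (adjusted p = 0.141), and 0.48 ± 0.14 (adjusted p = 0.0301) without mouse 026. Over the 18 omissions the adjusted p of Dcn lay between 0.0301 and 0.364.

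On DR, Lum was at 574 to 1173 normalized counts in Ercc1Δ/− mice and at 785 to 1072 in WT mice (log2 fold change -0.01 ± 0.14, adjusted p = 0.976). Within Ercc1Δ/− mice DR went with a log2 difference of -0.55 ± 0.15 in Lum (adjusted p = 0.0773), which was -0.70 ± 0.13 without mouse 026 (0.0139). DESeq2 called it (adjusted p = 0.028), as did edgeR without mouse 006 (0.0246). With 1 mouse left out, the adjusted p from edgeR lay between 0.0139 and 0.2. Dcn had a mean of 7187 ± 1267 (SD, n = 5) in DR-fed Ercc1Δ/− mice, the highest of the 6 groups, and 5918 ± 740 (n = 5) in DR-fed WT mice, with a log2 difference of 0.28 ± 0.12 (adjusted p = 0.15). Between 6 and 22 weeks Dcn went from 5041 ± 877 (n = 5) to 6523 ± 1111 (n = 4) in AL-fed Ercc1Δ/− mice (0.38 ± 0.13, adjusted p = 0.107). The adjusted p was 0.0226 without mouse 026 and 0.0443 without mouse 023, and it reached 0.312 over the omissions of 1 mouse. In WT mice Dcn stayed at 5283 ± 528 (n = 5) and 5279 ± 645 (n = 4) (adjusted p = 0.995).

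Aspn, Ogn, Podn and Vcan were called in none of the 9 comparisons. Aspn (asporin, a class I member without the usual sugar chain, chr13:49697609-49721057) ran from 399 to 1233 normalized counts over the 28 mice, and its group means were 820 ± 108 and 840 ± 237 in the DR groups (n = 5 each) and 604 to 661 in the 4 AL groups. DR went with 0.45 ± 0.20 in WT and 0.43 ± 0.21 in Ercc1Δ/− mice on the log2 scale (adjusted p = 0.352 and 0.348). Ogn (osteoglycin or mimecan, class III, chr13:49761349-49780412) had group means of 3013 to 3584 and was at -0.32 ± 0.16 between genotypes at 22 weeks on AL (adjusted p = 0.203, and 0.0232 with only the compared groups in the fit). Podn (podocan, class V, chr4:107871988-107889534) had group means of 367 to 463, and its difference of -0.31 ± 0.09 between 22 and 6 weeks in WT mice had an adjusted p of 0.203. Vcan (versican, the main large proteoglycan of the vascular media, chr13:89803431-89890814) had group means of 810 to 972, a range of 1.201-fold. Its log2 fold changes between genotypes were 0.25 ± 0.12 at 6 weeks, 0.06 ± 0.14 at 22 weeks on AL and 0.01 ± 0.12 on DR, with adjusted p-values of 0.40, 0.816 and 0.963.

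**Figure D2:**
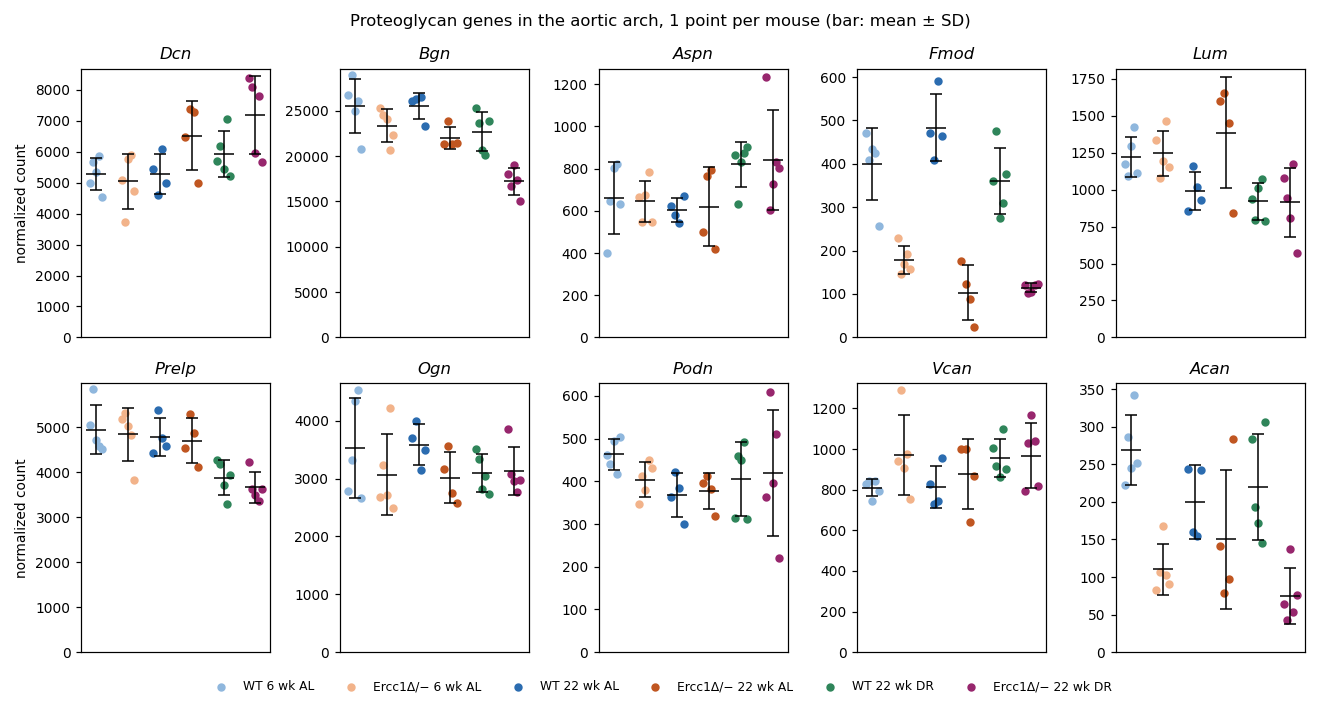
Normalized counts of the 10 proteoglycan genes in 28 mice, 1 point per mouse in 6 groups, with the group mean ± SD. Fmod values of all Ercc1Δ/− mice lie below all WT values, Bgn is lowest in DR-fed Ercc1Δ/− mice, and 1 AL-fed Ercc1Δ/− mouse of 22 weeks (026) lies apart in Fmod, Lum and Acan.

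Aspn and Ogn lie wholly inside the gene span of Cenpp, which is on the opposite strand, and had 19172 and 89634 counts in the 28 mice while Cenpp had 47. Prelp, Vcan and Acan overlap opposite-strand RNAs with 60, 673 and 1 counts, and 4098 of the 7031 bases of Prelp exons lie inside the span of such an RNA. Whether the counting used the strand is not given in the sources used here.

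Counted over the members, genotype at 6 weeks called 1 of 10 (Acan, lower), beside 1.72% of all 12353 tested genes called in either direction and 1.19% called lower. At that age 2 of 10, Fmod and Acan, were lower without overlap of the groups, beside 1.81% of all genes. At 22 weeks on AL 1 of 10 was called (Fmod, lower), beside 12.0% of all genes in either direction and 6.09% lower, so that the share of members called was close to that of all genes. Fmod was also the 1 of 10 without overlap, beside 9.63%. On DR 3 of 10 were called (Fmod, Acan and Bgn, all lower), beside 13.0% in either direction and 7.1% lower, and these 3 did not overlap between the groups, beside 5.2%. For DR in Ercc1Δ/− mice 2 of 10 were lower (Bgn and Prelp), beside 1.78% in either direction and 1.14% lower, and 1 of 10 (Bgn) did not overlap, beside 3.02%. The median log2 fold change of the 10 members was -0.10, -0.02 and 0.0 in the 3 genotype comparisons in that order, and 0.04 for DR in Ercc1Δ/− mice, and that of all tested genes was between -0.007 and 0.029. The comparisons share samples, since the AL-fed Ercc1Δ/− mice of 22 weeks enter those of genotype, age and diet.

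No member was called for age in WT mice (0 of 10 by edgeR, 0 by DESeq2, 1 at an unadjusted p under 0.05), beside 0.219% and, unadjusted, 8.64% of all genes. For age in Ercc1Δ/− mice it was also 0 of 10 by both tools, with 1 at an unadjusted p under 0.05, beside 4.65% and 17.8% of all genes. DR in WT mice called 0 of 10 by both tools, with 2 at an unadjusted p under 0.05, beside 1.28% and 12.9% of all genes. Prelp was the 1 of 10 that was lower without overlap, beside 2.68%. The interactions of genotype with age and with diet called 0 of 10 by both tools, with 3 and 1 at an unadjusted p under 0.05, beside 0.785% and 0.105% of all genes called and 11.4% and 8.73% at the unadjusted p. Between males and females 0 of 10 were called by edgeR and 1, Podn, by DESeq2. At an unadjusted p under 0.05 there were 3 (Podn, Acan and Lum), beside 0.186% of all genes called and 7.83% at the unadjusted p. Podn was at -0.34 ± 0.08 on the log2 scale in males against females (adjusted p = 0.0686 from edgeR and 0.0324 from DESeq2).

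**Figure D3:**
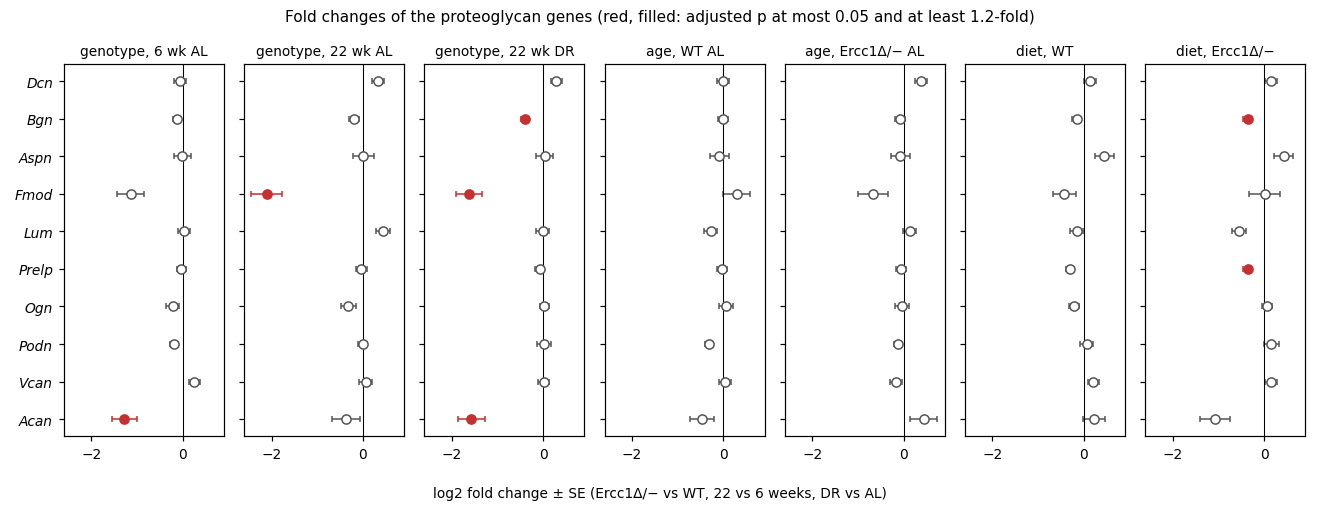
Log2 fold changes ± SE of the 10 members in 7 comparisons, with called members filled in red. Fmod has the largest difference between genotypes at 22 weeks on each diet and Acan at 6 weeks, Bgn is called only for genotype on DR and for diet in Ercc1Δ/− mice, and no member is called for age.

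Markers of several cell types differed between the genotypes. The summed smooth muscle markers were at 31845 to 38163 CPM in WT mice at 22 weeks on AL and at 16745 to 25999 in Ercc1Δ/− mice (6 of 8 genes called lower), and at 33022 to 42953 and 23465 to 25324 on DR (7 of 8 lower). At 6 weeks they were at 31754.5 to 40787 and 23627 to 32790, with overlap (3 of 8 lower, Myocd, Acta2 and Cnn1). Macrophage markers were at 242 to 358 in WT and 560 to 1032 in Ercc1Δ/− mice at 22 weeks on AL (7 of 8 genes higher), and at 146 to 279 and 359 to 1232 on DR (5 of 8 higher). At 6 weeks they were at 194 to 231 in WT and 243 to 603 in Ercc1Δ/− mice, without overlap (2 of 8 higher). The markers of tendon and valve interstitial cells, of which 2 of 6 were at 0 in most mice, were lower in Ercc1Δ/− mice without overlap, at 2138 to 2629 and 1685 to 2037 at 6 weeks, at 1802.5 to 1909.5 and 1243 to 1493 at 22 weeks on AL, and at 1685 to 2249 and 983 to 1441 on DR. Only 2 of the 6 genes of that list were tested, Postn and Scx, so the sum does not speak for the whole list. Postn was called lower in each of these comparisons, and Scx only on DR. The list median was -0.18 on the log2 scale at 6 weeks, -0.39 at 22 weeks on AL and -0.88 on DR. The median log2 fold change of the smooth muscle list was -0.69 at 22 weeks on AL and -0.63 on DR. In the same comparisons Fmod was at -2.10 and -1.62, Acan at -0.37 and -1.57, and Bgn at -0.20 and -0.40. Adventitial fibroblast markers overlapped between the genotypes at 22 weeks, with 2484 to 3154 in WT and 2006 to 2970 in Ercc1Δ/− mice on AL. Of their 10 genes 2 were called higher and 2 lower on AL, and 3 higher and 1 lower on DR. On DR 4 of 8 endothelial markers were called higher in Ercc1Δ/− mice (Cldn5, Egfl7, Cdh5 and Pecam1, list median 0.67 on the log2 scale). Their summed levels overlapped between the genotypes. At 22 weeks on AL 1 of the 8, Emcn, was called higher. Cardiac muscle markers on DR summed to 135.5 to 235.2 CPM in WT and 249.0 to 597.4 in Ercc1Δ/− mice, without overlap. At 22 weeks on AL these sums overlapped, at 136.7 to 281.6 in WT and 206.1 to 373.5 in Ercc1Δ/− mice. Of the 6 tested cardiac genes 1, Tnnt2, was called higher on each diet. The median log2 fold change of the cardiac list was -0.53 on AL and 1.29 on DR. The part of these cell types in the results of Fmod, Acan and Bgn was not tested.

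Mouse 026 stood apart among AL-fed Ercc1Δ/− mice of 22 weeks. On the log2 scale it deviated from its group mean by -1.68 in Fmod, -0.67 in Lum, -0.51 in Aspn and -0.37 in Dcn and by 1.08 in Acan, while Bgn (-0.04) and Vcan (0.01) were at the group mean. Its adventitial fibroblast markers were the lowest of its group (2006 CPM), and their part in these values was not tested. Over the 28 mice, after the group means were subtracted, Acan ran against Lum (r = -0.58), Podn (-0.56) and Dcn (-0.47), and Dcn ran with Lum (0.67) and Bgn with Prelp (0.58). The values of mouse 026 enter all of these. Sex was not subtracted, and its part in these correlations was not tested. In males against females Acan was at 0.48 ± 0.16, Lum at -0.24 ± 0.09 and Podn at -0.34 ± 0.08 on the log2 scale.

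**Figure D4:**
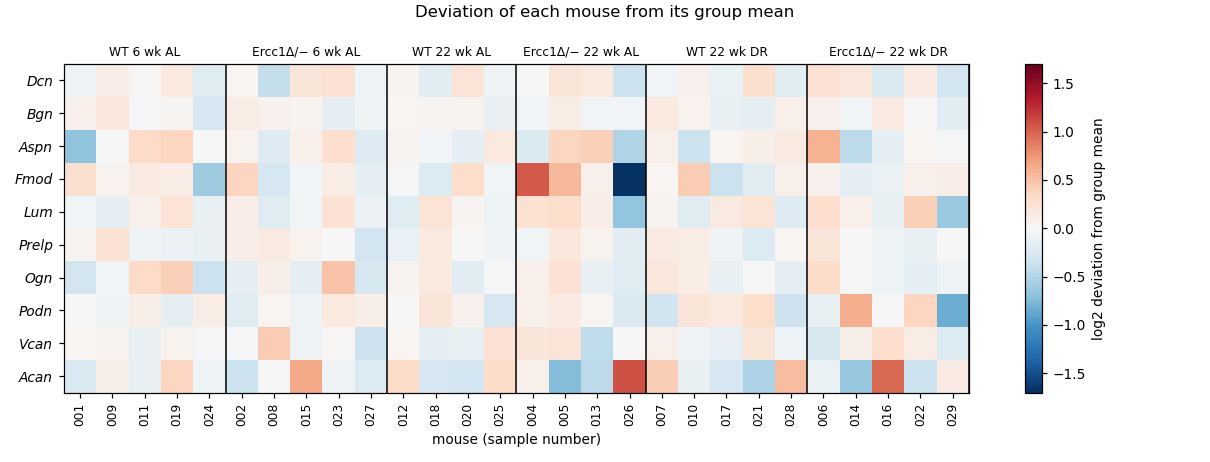
Deviation of each of the 28 mice from its group mean (log2 scale, columns by group) for the 10 members. Mouse 026 has the lowest value of Fmod (-1.68) and the highest of Acan (1.08), and Bgn and Prelp vary little.

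The genes with the most similar pattern to each member were found by Pearson's r of log2 CPM over the 28 mice after the group means were subtracted. For Dcn they were Abca8a (0.87), Smoc2 (0.87) and Rps4x (0.81), and for Lum they were Ube2n (0.80), Dpt (0.79), which is the collagen-binding protein dermatopontin, and Opcml (0.79). For Acan they were Id2 (0.81), Fgfr2 (0.79) and Atoh8 (0.75). Podn was most like Cpxm1 (0.81), Serpinf1 (0.80) and Pbdc1 (0.79), and Ogn most like Sema3d (0.82), Pcbp2 (0.79) and Tmpo (0.77). Bgn was most like Cpe (0.71), Fkbp9 (0.70) and Wls (0.67). For Fmod the values of 0.80 (Dip2b), 0.77 (Zfp931) and 0.76 (Nek3) fell to rank correlations of 0.58, 0.58 and 0.53. No member was among the 3 nearest genes of another. The points share libraries and depth, sex was not subtracted, and these are descriptions.

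Members of this family stand in clusters on the chromosomes. On chromosome 1, Optc (opticin, a class III member) lies 1.1 kb from Prelp, and Fmod lies beyond Prelp. Optc was at 266 ± 52.4 (SD, n = 4) normalized counts in WT and 94.1 ± 20.9 (n = 4) in Ercc1Δ/− mice at 22 weeks on AL (log2 fold change -1.48 ± 0.19, adjusted p = 3.87e-05) and was also lower on DR (-0.78 ± 0.14, adjusted p = 0.000523), and Prelp, which lies between Optc and Fmod, was at -0.04 ± 0.12 and -0.08 ± 0.09. Optc had a called interaction of genotype and age (-1.25 ± 0.25, adjusted p = 0.0144). On chromosome 13, Ecm2 lies 9.6 kb from Aspn and was lower at 22 weeks on AL (-0.39 ± 0.12, adjusted p = 0.0307), and Aspn was at 0.01 ± 0.22 and Ogn at -0.32 ± 0.16 (adjusted p = 0.986 and 0.203). Omd, 15.0 kb from Ogn, had log2 fold changes between genotypes of -0.31 ± 0.19, 0.03 ± 0.22 and 0.37 ± 0.15 (adjusted p = 0.559, 0.953 and 0.114). On chromosome 10, Kera had a count in 2 of 28 mice and Epyc, at a median of 19.5 counts, was called in no genotype comparison.

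The genes that make, sulfate, cut and degrade proteoglycans, and their partners, were followed on 12 lists with 126 tested genes of 160. At 22 weeks on AL 7 were higher and 23 lower in Ercc1Δ/− mice, which is 23.8% called, beside 12.0% of all genes. On DR 16 were higher and 19 lower, which is 27.8%, beside 13.0%. The lists were chosen with earlier results of these data known, so these shares are descriptions. Among 7 other matrix proteoglycans at 22 weeks on AL, 4 were lower and 1 higher. Col15a1 and Col18a1, collagens with sugar chains in basement membranes, were at -0.90 ± 0.14 and -0.72 ± 0.13 (adjusted p = 0.000231 and 0.000809), Hspg2 (perlecan) at -0.66 ± 0.13 (0.0013), and Prg4 (lubricin) was higher at 3.12 ± 0.37 (0.000105). Among 12 cell-surface proteoglycans 4 were lower, such as Cspg4 (NG2, a pericyte and smooth muscle protein) at -0.83 ± 0.13 (0.000134), and 1, Sdc3 (syndecan-3), was higher at 1.46 ± 0.24 (0.000774).

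The collagens that small leucine-rich proteoglycans bind were followed as a list of 8, and no test compared them with the members. At 22 weeks on AL 7 of 8 were lower in Ercc1Δ/− mice, with a list median of -0.66 on the log2 scale, where the members' median was -0.02, and on DR 5 of 8 were lower. Col6a3 was at -1.0 ± 0.15 and Col6a2 at -0.90 ± 0.13 at 22 weeks on AL (adjusted p = 0.000105 for both). Between 6 and 22 weeks all 8 of the 8 fell in Ercc1Δ/− mice and 3 of 8 in WT mice, with Col3a1 at -2.24 ± 0.18 and -0.98 ± 0.17 (adjusted p = 1.19e-07 and 0.0116), and no member was called for age in either genotype. Of the 8 collagens 5 had a called interaction of genotype and age, such as Col6a2 (-1.01 ± 0.18, adjusted p = 0.00579).

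Among the genes for building the sugar chains, few were called at 22 weeks on AL, as among all genes (12.0%). Of 21 genes for the linkage region and for chondroitin or dermatan sulfate, 2 were lower and 1 higher at 22 weeks on AL, Ust (-0.59 ± 0.13, adjusted p = 0.00324) and Chsy3 (-1.0 ± 0.27, 0.0175), which sulfate and extend the chain, and Chst15 (0.83 ± 0.26, 0.0362). None of 5 keratan sulfate genes was called at 22 weeks on AL, and on DR Chst2 was lower (-0.82 ± 0.20, adjusted p = 0.00653) and B4galt1 higher (0.33 ± 0.09, adjusted p = 0.00977). At 22 weeks on AL 1 of 15 heparan sulfate genes was (Ndst1, lower), and on DR 1 was (Ext1, lower). None of 7 genes for hyaluronan and its link proteins was called on AL, and Lyve1 was higher on DR. Of 8 proteases that cut the core proteins, Mmp3 (stromelysin-1) was 2.55 ± 0.21 higher on the log2 scale at 22 weeks on AL (adjusted p = 8.04e-08), and Adamts8 was lower. On DR 4 of the 8 proteases were higher and none lower (Mmp3, Adamts15, Adamts5 and Mmp2), with Adamts5, an aggrecanase, at 0.46 ± 0.13 (adjusted p = 0.0214). DR in Ercc1Δ/− mice went with lower Mmp3 (-1.37 ± 0.22, adjusted p = 0.00138). Of 13 lysosomal genes that break the chains down, Gusb and Hexa were higher at 22 weeks on AL (0.54 ± 0.10 and 0.44 ± 0.09, adjusted p = 0.000653 and 0.00155). Among 13 growth factors and receptors that core proteins bind, Tgfb2 and Tgfb3 were lower at 22 weeks on AL (-0.58 ± 0.14 and -0.69 ± 0.13, adjusted p = 0.00688 and 0.001).

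**Figure D5:**
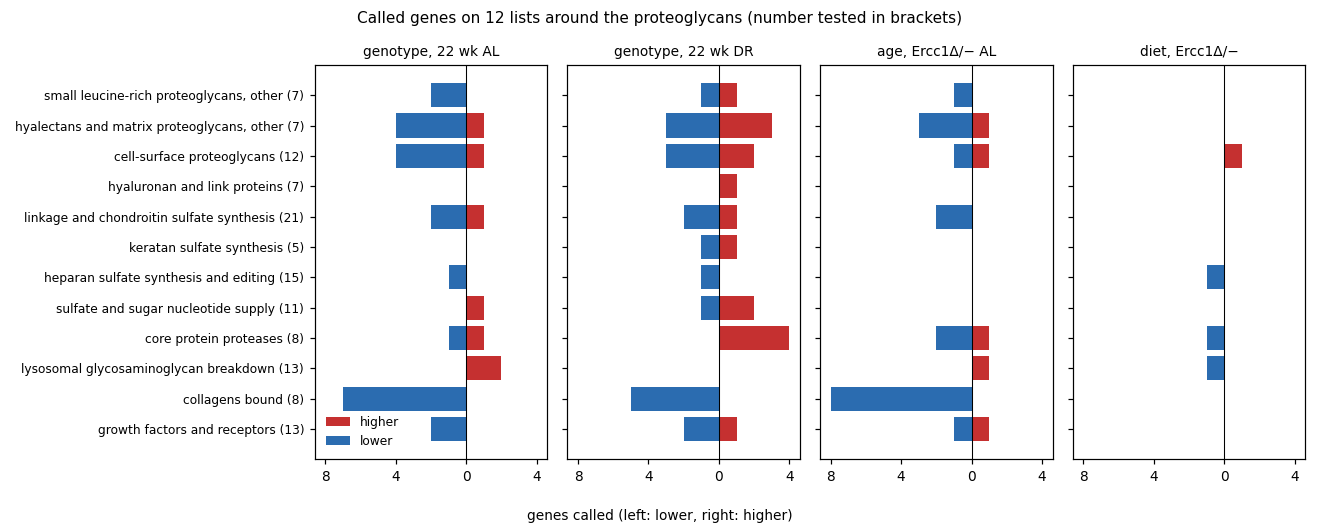
Number of genes called lower (blue, left) and higher (red, right) on 12 lists around the proteoglycans in 4 comparisons, with the number of tested genes in brackets. The collagens have 7, 5 and 8 genes called lower in the first 3 comparisons, and the 21 genes for chondroitin or dermatan sulfate have 3 calls at 22 weeks on AL.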

How the data were processed

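Bulk RNA of 29 aortic arches was measured. The authors removed duplicates by unique molecular identifiers (UMI-tools 1.1.2), aligned to mm39 (STAR 2.7.10a) and counted over gene bodies (htseq-count 2.0.2), and deposited whole-number counts per gene without normalization. The strand setting is not given in the sources used here. Sample 003 was left out, as by the authors. The 5 lines of unassigned reads were left out, and a symbol was found for 56017 of 56748 genes in a later GENCODE annotation of GRCm39.

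A gene was tested when over 10 of the 28 samples had over 10 counts each, which held for 12353 genes and all 10 members. Tests used edgeR 4.0.16 (quasi-likelihood, TMM factors of 0.935 to 1.07) in R 4.3.3, with group and sex as terms. One model held the 18 AL-fed samples (genotype, age, their interaction), the other the 18 samples taken at 22 weeks (diet, genotype under DR, their interaction). A call required an adjusted p (Benjamini-Hochberg, all tested genes) no higher than 0.05 and a 1.2-fold change, and for interactions the adjusted p alone. Adjusted p-values are from edgeR unless DESeq2 (1.42.0) is named. p-values measure the spread between mice, with 1 library each. The members and lists were chosen with earlier results of these data known. Named were the members, the called genes with the smallest p on each list, at most 4 per list, family members next to a member, genes that overlap a member, markers, and the 3 nearest genes in pattern. Tables were summarised in Python 3.11.15. On simulated data with the spread of these samples, the test was checked before use. Alternatives were DESeq2, other scalings, no filter, sample 003 added, no sex term, other samples in the fit, a test against the 1.2-fold change, thinned counts and each sample left out. The earlier dispersion method and TMM within the fit were added after seeing the data.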

Additional observations from a re-analysis of the deposited data

Results flagged for a closer look

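Within the 60 sets of a member and a group, 5 had a mouse whose gap to the nearest other mouse took most of the range of its group (Dixon's ratio above the 95% value), and chance gives about 1 in 20 such sets. Bgn was low in AL-fed WT mouse 025 of 22 weeks (23368 normalized counts, others 26063 to 26482) and high in AL-fed Ercc1Δ/− mouse 005 of 22 weeks (23886, others 21335 to 21411). Aspn was low in DR-fed WT mouse 010 (633, others 831 to 901), and Ogn was high in DR-fed Ercc1Δ/− mouse 006 (3850, others 2775 to 3078). Acan was high in Ercc1Δ/− mouse 015 of 6 weeks (168, others 82.9 to 107.1), which was still below every WT mouse of that age. The deviation of mouse 026 in Fmod, Lum and Acan was below the limit of this measure in each gene. No member had a called interaction.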

How the results depend on the processing

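Of 100 values (10 members in 9 comparisons and for sex), 87 had the same call under every alternative that keeps the samples or changes the method, and 85 also with each sample left out. Most of these were uncalled values, since 7 of the 100 were called in the reported fit. Acan at 6 weeks lost its call under 2 of the 13 alternatives, and Acan and Bgn for genotype on DR under 1 each. For diet in Ercc1Δ/− mice, Bgn lost its call under 5 and Prelp under 8. No called value changed its sign. Over all values, called and uncalled, 67 of 1160 changed it under the method alternatives and 108 of 1620 with a sample left out. Fmod at 22 weeks was called under all 13 alternatives and all 18 omissions on AL (log2 fold change -2.24 to -1.97 and -2.45 to -1.75) and on DR (-1.68 to -1.55 and -1.72 to -1.51).

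The number of members called changed as follows. For genotype at 6 weeks it was 1 as reported, 2 with DESeq2, without the sex term, with all 6 groups and with the compared groups only, 0 with the test against the 1.2-fold change, and 0 to 2 with 1 sample left out. With thinned counts it was also 1, but this was Fmod in place of Acan. For genotype at 22 weeks on AL it was 1, with 2 under library sizes alone, without the sex term and with the compared groups only, and 1 to 3 with 1 sample left out. For DR in Ercc1Δ/− mice it was 2, with 4 under DESeq2, 1 under RLE factors, with all 6 groups and with TMM within the fit, 0 with sample 003, without the sex term, with the compared groups only, with the test against the 1.2-fold change and with thinned counts, and 0 to 3 with 1 sample left out. For DR in WT mice it was 0, and 1 without the filter (Prelp). For age in Ercc1Δ/− mice it was 0, and 0 to 1 with 1 sample left out. For sex it was 0, and 1 with DESeq2. Genotype on DR kept 3 members with each sample left out and 2 to 4 over the alternatives. The cause of these changes was not tested, apart from fewer samples or counts by construction.

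The member level that moved by more than 1 SD was Aspn in AL-fed WT mice of 22 weeks when sample 003 was added. Depth limits Fmod and Acan most, at 10 and 11 counts in their lowest libraries. No paired analysis was possible because each mouse gave 1 library and no number is shared between groups.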
